A study of Homo sapiens with 7 samples.

Results

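Wild-type p53 was compared with vector in HCT116 p53-/- cells, an established human colon carcinoma line in which the p53 gene was inactivated. The comparison used the deposited column of counts for the cells infected with wild-type p53 and the column for the control cells, 2 of the 7 libraries of the series, and all 19699 protein-coding genes of the table. The control is called vector in the series design and vehicle in the sample labels, and is named vector here. Neither library received arsenic trioxide (ATO). The other 5 libraries, used here only to show where a level lay, came from vector cells with ATO, cells infected with p53-M133T without and with ATO, and cells infected with p53-R273H without and with ATO, at 1 µg/ml for 24 h. All 7 groups share the p53-/- background and hold 1 library each, and the labels used here do not give the promoter or copy number of the constructs.

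p53 is a transcription factor that binds DNA as a tetramer and activates genes for cell cycle arrest, apoptosis, DNA repair and its own degradation. Its product p21 (CDKN1A) inhibits cyclin-dependent kinases, which keeps the retinoblastoma family active, so that E2F-bound replication genes and the mitotic genes held by the DREAM complex are repressed. MDM2, itself a target, is the ubiquitin ligase that degrades p53.

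Total counts were 25062996 in the wild-type p53 library and 34474017 in the vector library, within a range of 25062996 to 39297534 over the 7. Levels are CPM, the count divided by the library total and scaled by the trimmed mean of M-values (TMM), log2 ratios are of wild-type p53 over vector with 1 CPM added to each level, and folds are ratios without that addition. A gene is called 2-fold higher or lower here by its log2 ratio with the 1 CPM added, so a low gene can have a fold above 2 and not be counted. The interval after a fold is a 95% Clopper-Pearson interval of the split of the counts, which covers counting error only. No group has a replicate, so no difference below has a replicate check and none has a p-value. The wild-type p53 library carries the name prefix 190612 and the other 6 libraries 190312, which leaves batch and genotype impossible to separate: they cannot be told apart in any value below. The epithelial genes EPCAM, KRT8 and CDX2 were present in both libraries, whereas the colon differentiation genes CEACAM5, FABP1 and PHGR1 had 0 counts in both.

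At least 1 CPM in 1 of the 2 libraries was reached by 12500 genes. Of these, 364 were higher with wild-type p53 by 2-fold or more (2.91%) and 248 lower by as much (1.98%), and the log2 ratio was above 0 for 51.3%. For comparison, 26 of 12339 genes (0.211%) differed at least 2-fold between p53-M133T and vector, and 22 of 12357 (0.178%) between p53-R273H and vector, libraries that share a name prefix. Of the 364 genes, 352 stood higher in the wild-type p53 library than in all 6 others, and 240 of the 248 stood lower than in all 6. Over all 12500 genes the wild-type p53 library was above all 6 others for 29.7% and below all 6 for 30.2%, and the vector library lay outside the range of the other 5 for 22.8%. Median log2 ratios of the 23 nuclear chromosomes lay between -0.05 and 0.07. In RNA from a whole culture, fewer cells of a kind and less RNA per cell cannot be told apart.

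**Figure D1:**
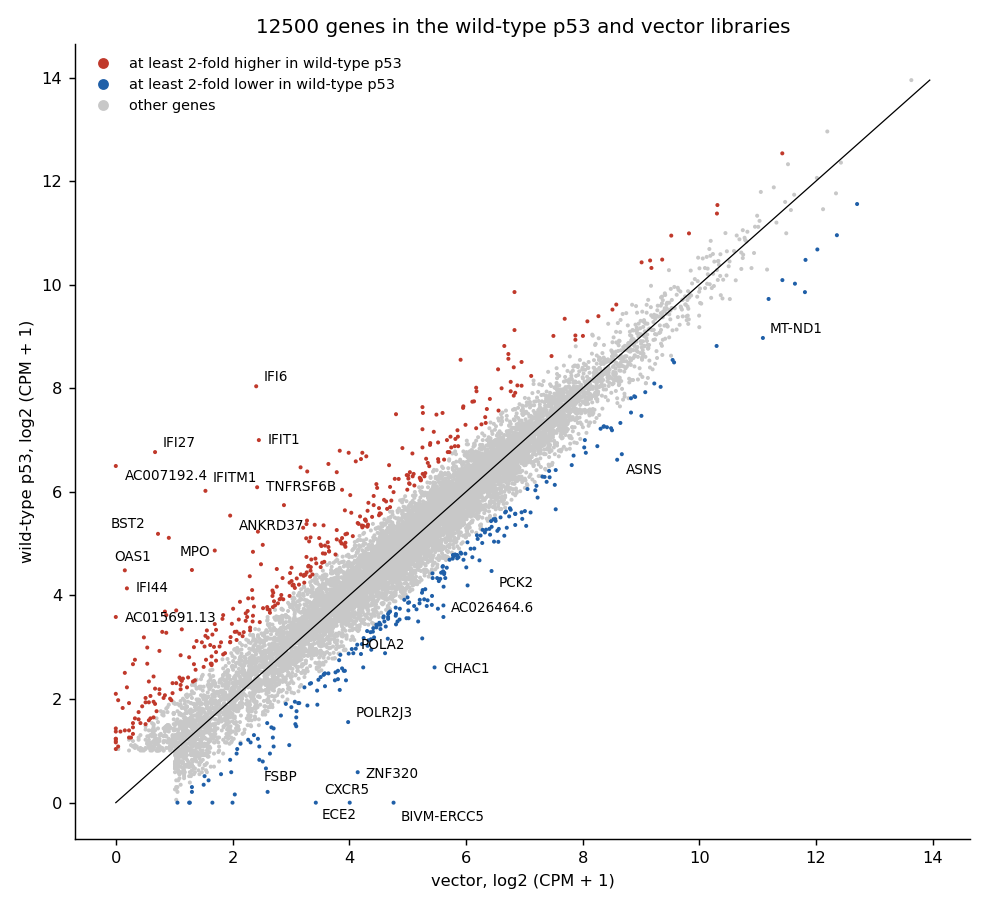
Level of 12500 genes in the wild-type p53 library (vertical axis) and the vector library (horizontal axis), both as log2 of CPM + 1, with 1 point per gene and the line of equal levels. Genes at least 2-fold higher (364, red) and lower (248, blue) in wild-type p53 lie on both sides, and the 12 highest and 12 lowest log2 ratios among genes with at least 5 CPM in 1 of the 2 libraries are named.

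The p53 targets were described in 6 lists by role, with 135 genes matched in the table, of which 127 reached 1 CPM. Of the 127, 10 were higher by 2-fold or more and 4 lower, against the 2.91% and 1.98% of all genes. Their log2 ratio was above 0 for 93, with a median of 0.22, while the median of all 12500 genes was 0.013. The wild-type p53 library was above all 6 others for 42 of the 127 and below all 6 for 19. Of the 127, 2 reached 1 CPM only with wild-type p53 and 2 only with vector, so the direction of these was fixed by that minimum.

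Among the targets that arrest the cell cycle, 3 of 9 were at least 2-fold higher and none lower, with a median log2 ratio of 0.45. BTG2, an antiproliferative cofactor of transcription, stood at 47.4 CPM with wild-type p53 and 15.4 CPM with vector, 3.09-fold higher (2.79 to 3.42). The other 5 libraries had between 11 and 39.6 CPM, so the wild-type p53 library was the highest of the 7. CDKN1A stood at 196 and 60.9 CPM in wild-type p53 and vector cells, but p53-M133T cells with ATO had 357 CPM. ZMAT3, an RNA-binding zinc finger gene, had a log2 ratio of 1.11, and again p53-M133T cells with ATO were higher (58.2 CPM) than wild-type p53 cells (56 CPM). SFN, the 14-3-3 protein that retains CDC25C and CDK1 in the cytoplasm, had 269 CPM with wild-type p53 and 152 CPM with vector (1.78-fold, 1.71 to 1.84). GADD45A, a stress sensor, was level at 40.4 CPM in both, and E2F7, an atypical E2F repressor, had a log2 ratio of -0.65.

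Of the genes that feed back on p53, 1 of 8 was at least 2-fold higher. TP53INP1, which promotes p53-dependent cell death and autophagy, stood at 60.3 CPM with wild-type p53 and 15.2 CPM with vector, with 9.47 to 35 CPM in the other 5 libraries. MDM2 (243 and 150 CPM) was within the range of the other libraries, which reached 550 CPM in p53-M133T cells with ATO. PPM1D, a phosphatase that dampens p53 signalling, had a log2 ratio of 0.29, PHLDA3, an inhibitor of AKT, one of 0.51, and TP73, a p53 family member, one of -0.55.

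**Figure D2:**
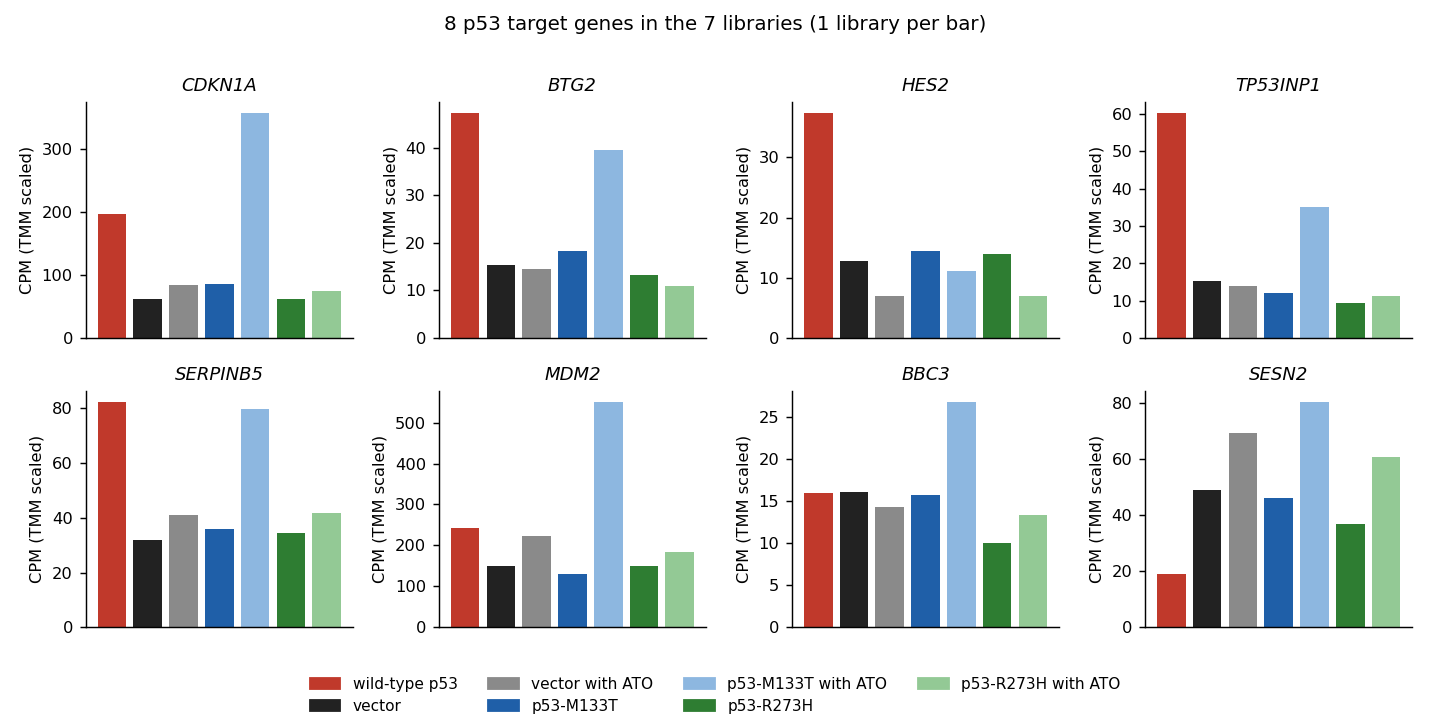
CPM of 8 p53 target genes in the 7 libraries, with 1 bar per library and an axis of its own for each gene. In the wild-type p53 library CDKN1A, BTG2, HES2, TP53INP1 and SERPINB5 stand above vector, BBC3 stands level with it at 16 and 16.1 CPM, and SESN2 is the lowest of the 7 libraries at 19.2 CPM.

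Of 20 apoptosis targets described, 2 were at least 2-fold higher, and 4 more listed genes did not reach 1 CPM in either library. CASP10, an initiator caspase, had 5.15 CPM with wild-type p53 and 1.84 CPM with vector (2.80-fold, 2.07 to 3.83), and TP53I3, a quinone oxidoreductase, had 16.7 and 7.39 CPM (2.26-fold, 1.93 to 2.64). Both were higher in the wild-type p53 library than in all 6 others. The BH3-only gene BIK was 1.88-fold higher (1.60 to 2.22). The mitochondrial effector BAX had a log2 ratio of 0.27 and the death receptor gene FAS one of 0.59, while the BH3-only gene PMAIP1, which encodes NOXA, had one of -0.46. PIDD1, a caspase-2 adaptor, stood at 17.5 CPM with wild-type p53, below the vector library (31.1 CPM) and the other 5 (20.1 to 35.1 CPM).

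The DNA repair targets went in both directions, with none of 11 reaching 2-fold. The ribonucleotide reductase subunit RRM2B had 109 CPM with wild-type p53 and 61.1 CPM with vector (1.78-fold, 1.68 to 1.88). The nucleotide excision repair genes DDB2 and XPC had log2 ratios of 0.11 and 0.22. Of the 11, none stood above all 6 other libraries and 5 stood below all 6 (45.5%), against 29.7% and 30.2% of all genes.

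Targets in metabolism and stress held the genes that went farthest against the direction of the others. PRODH, the first enzyme of proline catabolism, had 0.929 CPM with wild-type p53 and 5.24 CPM with vector, a ratio of 0.177 (0.111 to 0.272). It reached 1 CPM only with vector, so its direction was fixed by that minimum. SESN2, a leucine sensor that restrains mTORC1 and is also a target of ATF4, had 19.2 and 49.1 CPM, a ratio of 0.390 (0.352 to 0.431). Its paralog SESN1 was higher, with 16.4 CPM with wild-type p53 and 8.04 CPM with vector, a log2 ratio of 0.94. PANK1, which catalyses the first step of coenzyme A synthesis, had 19.3 and 9.71 CPM (1.99-fold, 1.73 to 2.29). DDIT4, an inhibitor of mTORC1 that is also induced by hypoxia and by ATF4, had 391 and 219 CPM, above all 6 other libraries. Over the list, 2 of 13 genes were at least 2-fold lower and none higher.

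In the list of signalling and other targets, 4 of 66 were higher by 2-fold or more and 2 lower. HES2, a basic helix-loop-helix repressor, had 37.4 CPM with wild-type p53, 12.8 CPM with vector and 6.95 to 14.4 CPM in the other 5 libraries (2.93-fold against vector, 2.61 to 3.28). SERPINB5, which encodes maspin, had 82.3 and 31.9 CPM (2.58-fold, 2.40 to 2.78), close to the 79.7 CPM of p53-M133T cells with ATO. PRDM1, a transcriptional repressor, had 2.36 and 0.311 CPM (7.58-fold, 3.96 to 16). It reached 1 CPM only with wild-type p53, so its direction was fixed by that minimum. THBS1, an inhibitor of angiogenesis, was lower, at 16.2 CPM with wild-type p53 against 37.3 CPM with vector, as was the phosphatase PTP4A1 at 361 against 758 CPM. The secreted cytokine GDF15 had a log2 ratio of 0.67 and KITLG, the ligand of the receptor KIT, one of 0.65. A search of RefSeq promoters (GRCh38.p14, 250 bases before to 50 after the start) for the p53 decamer, the unit that occurs in pairs in p53 elements, on both strands found it in 7 of 108 promoters of targets (6.48%), against 6.54% of all 27305 promoters and 5.11% of those of the genes described here. The 7 were PLK2, BAK1, AEN, FDXR, RPS27L, RAP2B and ABCA12, with log2 ratios between -0.06 for AEN and 0.71 for ABCA12.

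**Figure D3:**
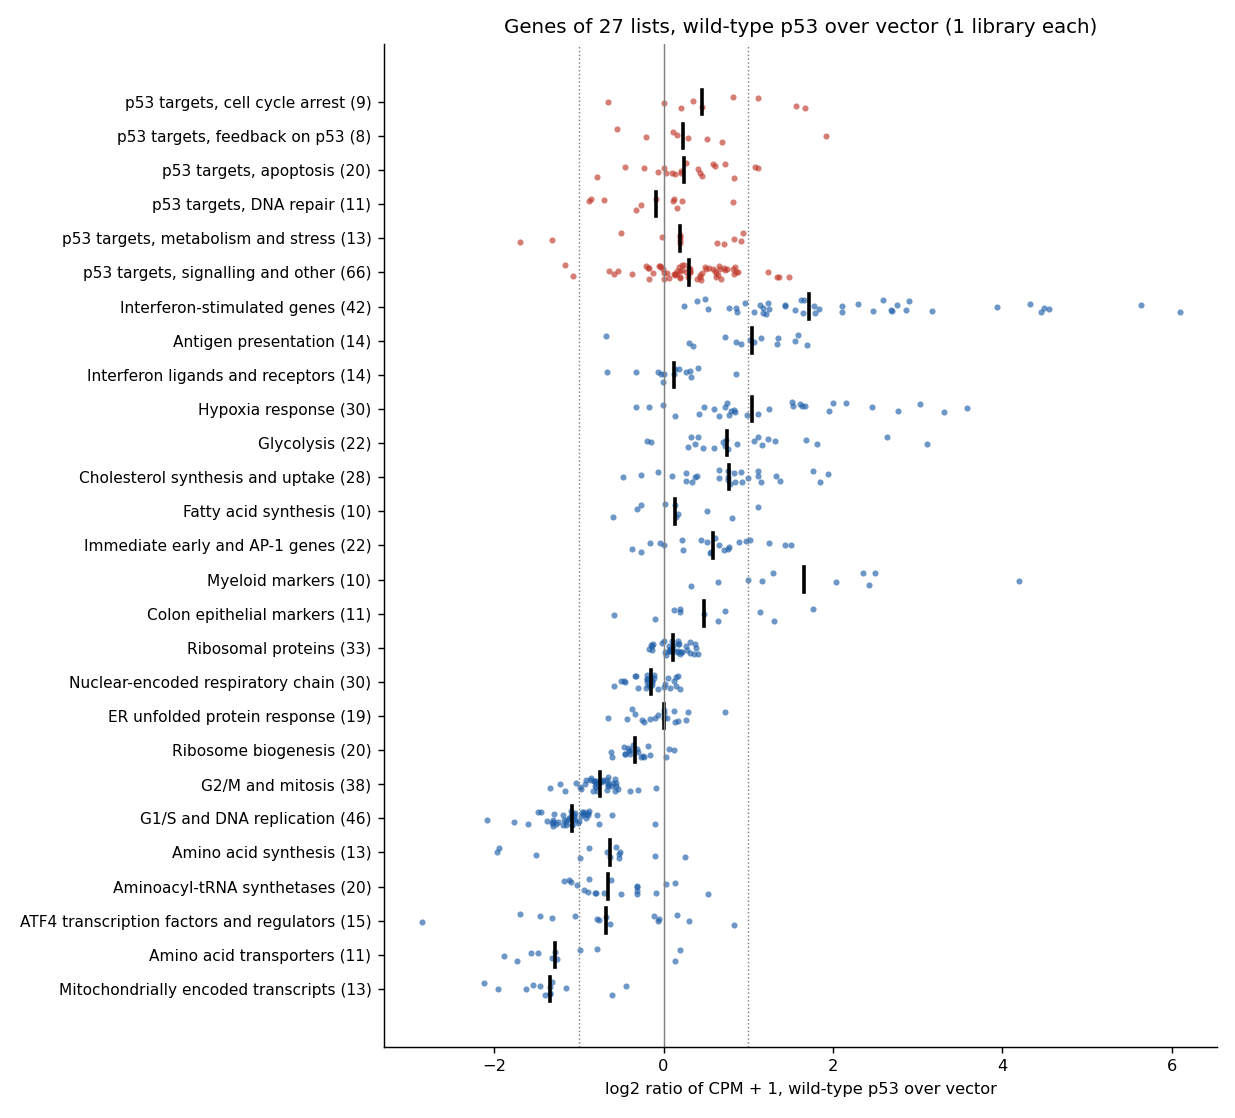
Log2 ratio of CPM + 1, wild-type p53 over vector, for each gene of 27 lists, with 1 point per gene, the number of genes in brackets, black ticks at the medians and dotted lines at 2-fold. The p53 target lists (red) lie close to 0 with medians between -0.09 and 0.45, the interferon-stimulated genes reach a median of 1.72 and the mitochondrially encoded transcripts one of -1.34.

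Genes of DNA replication were lower with wild-type p53 throughout the list. Of 46 genes that are expressed at the entry into S phase, none had a log2 ratio above 0 and 33 were at least 2-fold lower, with a median of -1.08, and 44 were lower than in all 6 other libraries. The exceptions were CCNE1, which encodes cyclin E1, at 39.6 CPM with wild-type p53, 42.6 CPM with vector and as little as 39.3 CPM in the others, and MCM7, at 242 and 538 CPM but 202 CPM in p53-M133T cells with ATO. Subunits of the replicative helicase and its activators were lower, with MCM3 at 145 CPM with wild-type p53 and 362 CPM with vector (ratio 0.400, 0.386 to 0.415) and the GINS subunit GINS4 at 13.1 and 41.7 CPM (0.314, 0.278 to 0.354). E2F2, an activator of these genes, had 12.4 and 44.9 CPM (0.277, 0.245 to 0.312). CHAF1A, which deposits histones behind the fork, had 40.1 and 114 CPM. DNA polymerase alpha subunit POLA2 was among the 12 lowest genes of all, and its exons overlap another gene of the same strand. E2F1 had 20.7 and 48.5 CPM.

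The promoters of this list, whose genes were lower together, were searched for the E2F motif GCGGGAAA on both strands. It was found in 10 of 39 promoters (25.6%), against 1.66% of all promoters and 2.62% of those of the described genes. Windows of 60 bases from 3 of them are shown, with the motif, or its reverse complement, in capitals, for MCM3 (chr6:52284883-52284942, minus strand), MCM7 (chr7:100101551-100101610, minus strand) and PCNA, the sliding clamp of DNA polymerases (chr20:5126648-5126707, minus strand), all GRCh38.p14 and each read 5′ to 3′ towards the start site.
MCM3: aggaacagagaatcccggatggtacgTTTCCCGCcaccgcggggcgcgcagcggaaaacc
MCM7: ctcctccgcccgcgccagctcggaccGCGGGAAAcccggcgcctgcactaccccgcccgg
PCNA: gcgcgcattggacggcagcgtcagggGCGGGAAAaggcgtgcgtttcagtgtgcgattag
A match of letters is a description of the promoter and not a site bound in these cells. PCNA stood at 161 CPM with wild-type p53 and 279 CPM with vector.

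Mitotic genes were lower as well, by less. Of 38 genes none had a log2 ratio above 0, 4 were at least 2-fold lower, and 37 were lower than in all 6 other libraries, with a median of -0.75. The 4 were MYBL2 (58.3 CPM with wild-type p53, 149 CPM with vector) and FOXM1 (76.8 and 172 CPM), transcription factors of this programme, ESPL1, the separase that cleaves cohesin (45.1 and 106 CPM), and TTK, a kinase of the spindle checkpoint (43.5 and 89.7 CPM). Cyclin B1 (CCNB1) had 192 and 278 CPM, a ratio of 0.689 (0.666 to 0.713), and CCNB2 had 70.2 and 105 CPM. CDC25B, the phosphatase that activates CDK1, was the gene not below all 6 others, at 262 and 280 CPM. The proliferation marker MKI67 stood at 579 CPM with wild-type p53 and 1023 CPM with vector.

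The CHR element TTTGAA, the site through which the DREAM complex holds mitotic promoters, was found in 20 of 32 promoters of the list (62.5%), against 15.4% of all promoters and 9.26% of those of the described genes. Windows are given for CCNB2 (chr15:59105086-59105145, plus strand), PLK1, the mitotic polo-like kinase (chr16:23678829-23678888, plus strand), and MKI67 (chr10:128126424-128126483, minus strand), where the element occurs at the same distance before the start, with capitals for the element.
CCNB2: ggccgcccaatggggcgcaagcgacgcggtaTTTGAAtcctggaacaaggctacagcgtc
PLK1: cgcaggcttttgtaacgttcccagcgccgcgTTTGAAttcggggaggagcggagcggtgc
MKI67: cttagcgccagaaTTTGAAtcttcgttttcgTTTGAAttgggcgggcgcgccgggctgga
In each the last base of the capitals nearest the start lies at position -24. This distance was not general: in the promoters of CDC20, CDK1 and TOP2A the base lies at -60, -156 and -146. PLK1 had 112 CPM with wild-type p53 and 199 CPM with vector.

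Interferon-stimulated genes were higher in the wild-type p53 library, and 7 of the 12 highest log2 ratios were of genes of this list. These genes are induced through a complex that holds STAT2 and IRF9 and binds the interferon-stimulated response element (ISRE), and they encode antiviral effectors. Of 49 matched genes 42 reached 1 CPM. All 42 had a log2 ratio above 0 and stood above all 6 other libraries, and 34 were at least 2-fold higher. Of the 42, 8 reached 1 CPM only with wild-type p53, so their direction was fixed by that minimum. IFI27, OAS1, BST2 and IFI44, all among the 12 highest, belong to these 8. Together with antigen presentation the list accounts for 42 of the 364 genes at least 2-fold higher (11.5%), against 10 (2.75%) for the p53 targets. These lists held 42 and 14 described genes and the p53 target lists 127, of the 12500. Of the p53 targets described, 7.87% were at least 2-fold higher, against 2.91% of all genes.

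OAS1, which senses double-stranded RNA, had 21.4 CPM with wild-type p53 and 0.113 CPM with vector, with 0.0507 to 0.228 CPM in the other 5 libraries (189-fold, 73.4 to 696). BST2, which tethers budding virions, had 35.5 and 0.651 CPM (54.5-fold, 36.1 to 86.4), and IFI44 had 16.6 and 0.141 CPM (117-fold, 49.8 to 362). IFITM1, a membrane protein that blocks viral entry, had 63.9 CPM with wild-type p53 and 1.90 CPM with vector, and the 3 libraries with ATO were lower still, at 0.187 to 0.404 CPM. The exons of IFITM1 overlap another gene of the same strand. Of the transcription factors named above, IRF9 had 40.6 and 8.63 CPM (4.71-fold, 4.14 to 5.37) and STAT2 had 55.4 and 42.1 CPM (log2 ratio 0.39).

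Among the ligands IFNB1 had 0 counts in both libraries, and IFNA1 had 0 counts with wild-type p53 and 0.113 CPM with vector. None of 14 described genes of ligands, receptors and sensors reached 2-fold, and their median log2 ratio was 0.13. The double-stranded RNA receptor TLR3, a gene also listed as a p53 target, had 2.75 and 1.08 CPM (log2 ratio 0.85) and the kinase TYK2 42.7 and 68.4 CPM. In antigen presentation 8 of 14 genes were at least 2-fold higher and 12 stood above all 6 others. The class I heavy chain gene HLA-B (200 CPM with wild-type p53, 61.1 CPM with vector) and the light chain gene B2M (278 and 108 CPM) were higher, as was PSMB9, a subunit of the immunoproteasome, at 6 and 1.39 CPM. PSMB10, another such subunit, went the other way, at 5.03 and 8.69 CPM.

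Promoters of the interferon lists were searched on both strands for the ISRE core, which is GAAA, any 2 bases and GAAA. It was found in 24 of 39 promoters of interferon-stimulated genes, but fewer than 80% of that list have a promoter in the table, so its share is not read further. In antigen presentation it was found in 8 of 12 (66.7%), against 3.65% of all promoters and 2.67% of those of described genes. Windows of 60 bases are shown for the 3 genes with the highest log2 ratios of the list, which carry 2 such elements each, in capitals in either orientation: IFI27 (chr14:94110616-94110675, plus strand), IFI6 (chr1:27672251-27672310, minus strand) and IFIT1 (chr10:89392495-89392554, plus strand).
IFI27: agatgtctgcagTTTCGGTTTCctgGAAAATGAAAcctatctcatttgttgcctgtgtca
IFI6: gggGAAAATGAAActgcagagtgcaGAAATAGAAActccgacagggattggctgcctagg
IFIT1: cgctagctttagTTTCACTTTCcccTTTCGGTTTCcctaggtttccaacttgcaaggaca
IFI27 encodes a mitochondrial protein, IFI6 an inhibitor of apoptosis and viral replication, and IFIT1 a binder of foreign RNA caps.

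**Figure D4:**
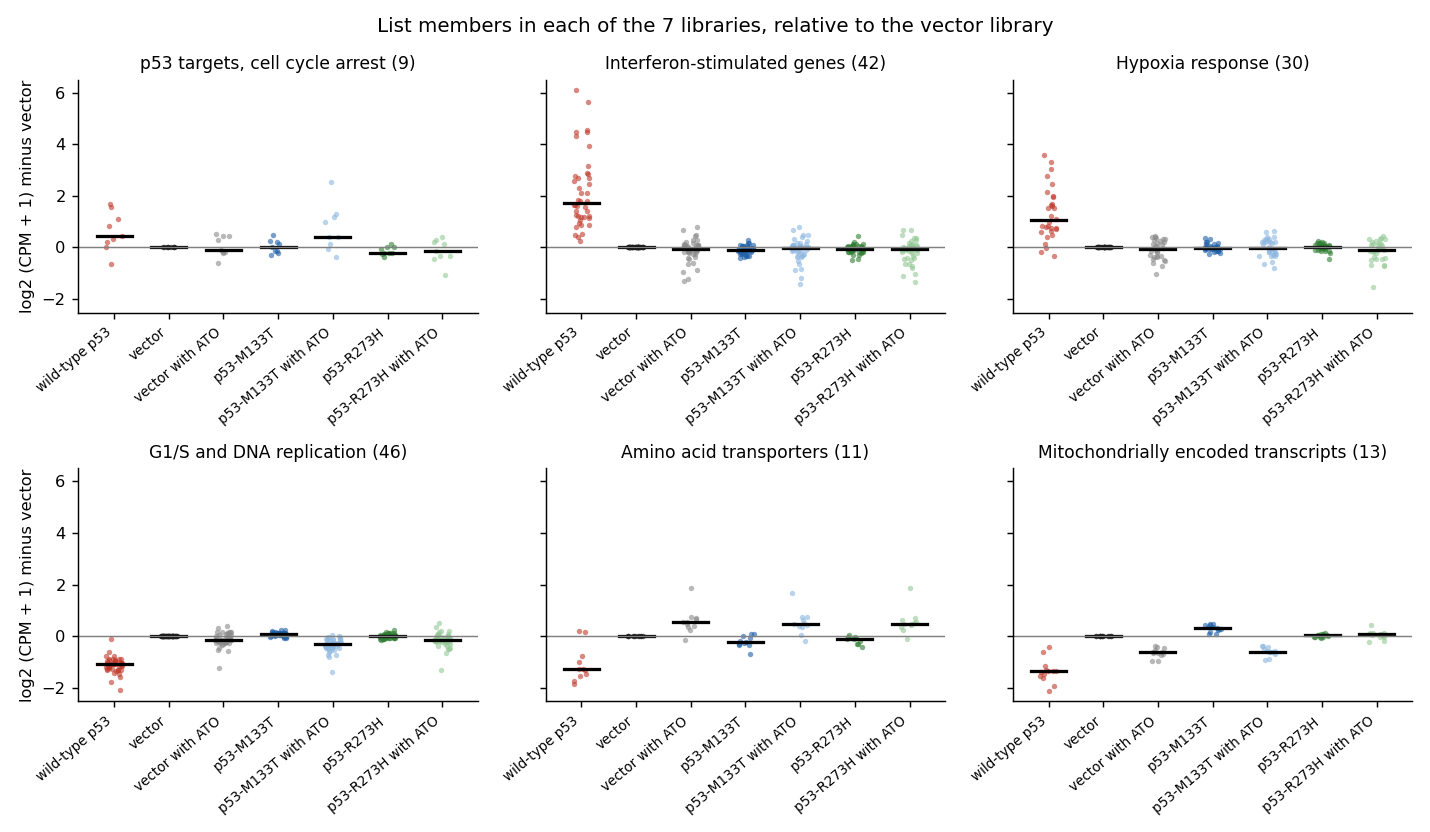
Log2 of CPM + 1 minus that of the vector library for the genes of 6 lists in the 7 libraries, with 1 point per gene and black bars at the medians. In the interferon, hypoxia and replication panels the wild-type p53 library lies apart from the other 6. It is also below all 6 for 9 of 11 transporters and 11 of 13 mitochondrial transcripts. In vector cells without and with ATO the replication list sums to 6855 and 6017 CPM and the transporters to 3981 and 5884 CPM. The mitochondrial list sums to 35988 and 23664 CPM in vector cells without and with ATO, but to 36853 and 37066 CPM in p53-R273H cells.

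Hypoxia-induced genes were higher with wild-type p53. They are switched on by HIF, whose alpha subunits are hydroxylated for degradation by EGLN enzymes when oxygen is present. Of 30 described genes 15 were at least 2-fold higher and none lower, with a median log2 ratio of 1.05, and 26 stood above all 6 others. The HIF target ANGPTL4, a secreted inhibitor of lipoprotein lipase, had 87.9 CPM with wild-type p53 and 7.98 CPM with vector (11-fold, 9.73 to 12.5), and the vasodilator peptide gene ADM had 107 and 14.9 CPM (7.21-fold, 6.56 to 7.92). The carbonic anhydrase CA9 had 6.97 and 0.453 CPM (15.4-fold, 9.22 to 27.5). CA9 is 1 of 2 genes of the list that reached 1 CPM only with wild-type p53, so their direction was fixed by that minimum. The oxygen sensors EGLN1 (132 and 73.0 CPM) and EGLN3 (14.4 and 3.82 CPM), which are themselves HIF targets, were also higher. HIF1A, which is controlled mainly through its protein, was level at 210 and 212 CPM.

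Glycolysis shared this direction, with 9 of 22 genes at least 2-fold higher, none lower and a median of 0.75. ALDOC, an aldolase, had 374 CPM with wild-type p53 and 59.1 CPM with vector (6.33-fold, 6.03 to 6.64). ENO2, an enolase, had 329 and 92.8 CPM, and PDK1, a pyruvate dehydrogenase kinase, had 70.0 and 21.1 CPM. The glucose transporter SLC2A1 had 524 and 286 CPM (1.83-fold, 1.79 to 1.88). PFKM and the monocarboxylate transporter SLC16A1 were the genes below 0, with log2 ratios of -0.15 and -0.19. The core of the hypoxia response element, ACGTG, was found on either strand in 15 of 29 promoters of the hypoxia list (51.7%) and 9 of 20 of glycolysis (45%), against 21.6% of all promoters and 26.7% of those of described genes. This short core was also found in 12 of 32 mitotic promoters (37.5%), whose genes were lower, and in 30.8% of those of interferon-stimulated genes that have one in the table. ANKRD37, the hypoxia gene with the largest ratio, is shown (chr4:185396671-185396730, plus strand), with the core and its reverse complement in capitals, where 2 overlapping matches form CACGTG.
ANKRD37: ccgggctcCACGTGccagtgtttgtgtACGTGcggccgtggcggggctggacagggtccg
Its exons overlap a gene on the opposite strand, and it stood at 45.6 CPM with wild-type p53 and 2.89 CPM with vector.

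Cholesterol synthesis genes, which SREBF2 activates when sterols are low, were higher as well. Of 28 genes 8 were at least 2-fold higher, none lower, and 24 stood above all 6 others, with a median of 0.78. HMGCS1, which makes the precursor HMG-CoA, had 379 CPM with wild-type p53 and 105 CPM with vector (3.62-fold, 3.48 to 3.76). MSMO1, a sterol demethylase, had 245 and 71.6 CPM, and IDI1, which isomerises isopentenyl diphosphate, had 221 and 84.1 CPM. SREBF2 had 396 and 302 CPM, and SREBF1 228 and 274 CPM. Fatty acid synthesis had a median of 0.14, with ACSS2, which makes acetyl-CoA from acetate, at least 2-fold higher (115 and 52.8 CPM). The desaturase SCD had 5133 and 2936 CPM (1.75-fold, 1.73 to 1.76).

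Genes of the ATF4 programme were lower with wild-type p53. ATF4 is translated when the initiation factor eIF2 is phosphorylated, as in amino acid shortage, and activates amino acid synthesis, uptake and tRNA charging. ATF4 itself had 229 CPM with wild-type p53 and 472 CPM with vector, a ratio of 0.485 (0.470 to 0.499), below all 6 other libraries. Of the 15 transcription factors and regulators 5 were at least 2-fold lower and none higher, among them TRIB3, a pseudokinase that restrains ATF4 (39.6 and 130 CPM), and DDIT3, which encodes CHOP (10.8 and 31.4 CPM). Of the 15, 1 reached 1 CPM only with vector, so its direction was fixed by that minimum. The eIF2 kinases EIF2AK3 and EIF2AK4 had log2 ratios of 0.30 and 0.16.

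Among amino acid transporters 7 of 11 were at least 2-fold lower, and the median was -1.28. The cystine exchanger SLC7A11 had 49.7 CPM with wild-type p53 and 185 CPM with vector, a ratio of 0.268 (0.253 to 0.285), and the leucine exchanger SLC7A5 had 450 and 1257 CPM (0.358, 0.351 to 0.366). SLC7A11 is a gene that p53 is known to repress, and it reached 589 to 677 CPM in the 3 libraries with ATO. SLC1A4, a transporter of alanine, serine and cysteine, had 6.39 and 23.5 CPM. SLC38A2 was the member above all 6 other libraries, at 934 and 817 CPM.

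Amino acid synthesis had 3 of 13 genes at least 2-fold lower, ASNS and the serine pathway enzymes PHGDH (47.6 CPM with wild-type p53, 137 CPM with vector) and PSAT1 (105 and 407 CPM). Of 20 aminoacyl-tRNA synthetases, 4 were at least 2-fold lower: YARS (151 and 341 CPM), WARS (84.7 and 185 CPM), MARS (148 and 316 CPM) and AARS (223 and 454 CPM). DARS went the other way, at 179 and 125 CPM, as the synthetase above all 6 other libraries. PCK2, the mitochondrial phosphoenolpyruvate carboxykinase, was in no list and among the 12 lowest genes, at 21.2 and 85.8 CPM (0.247, 0.225 to 0.271).

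The ATF4 composite element, searched as TGATGNAA on both strands, was found in 6 of 16 synthetase promoters (37.5%), 3 of 10 of transporters (30%) and 3 of 14 of the regulators (21.4%), against 3.67% of all promoters and 1.61% of those of described genes. Windows are shown for the lowest gene of the regulators and of the synthesis list, CHAC1 (chr15:40953236-40953295, plus strand) and ASNS (chr7:97872443-97872502, minus strand), with the element or its reverse complement in capitals.
CHAC1: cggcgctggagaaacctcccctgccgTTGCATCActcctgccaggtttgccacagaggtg
ASNS: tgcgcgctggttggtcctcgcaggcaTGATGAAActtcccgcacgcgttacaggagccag
CHAC1 had 5.11 CPM with wild-type p53, 43.1 CPM with vector and 30.7 to 58.3 CPM in the other 5 libraries. The unfolded protein response of the endoplasmic reticulum, which shares the kinase EIF2AK3 with this programme, had a median of 0.00 and no gene past 2-fold. Its chaperone HSPA5 had 1090 and 1275 CPM.

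Transcripts of the mitochondrial genome took 1.41% of the counts in the wild-type p53 library and 3.69% in the vector library, with 2.30% to 4.59% over the 6 libraries other than wild-type p53. Of 13 such transcripts 11 were at least 2-fold lower and 11 below all 6 others. The complex I subunit genes MT-ND1 (501 CPM with wild-type p53, 2179 CPM with vector) and MT-ND2 (926 and 3591 CPM) had the lowest ratios, 0.230 and 0.258. MT-ND3 was the least changed, at 598 and 810 CPM, and it reached 584 CPM in vector cells with ATO. The nuclear-encoded subunits of the respiratory chain had a median of -0.14, with none of 30 past 2-fold. The factors that transcribe and stabilise mitochondrial RNA had one of -0.13, with POLRMT, the mitochondrial RNA polymerase, at 125 and 138 CPM and SLIRP, which binds mitochondrial mRNA, at 26.3 and 45.4 CPM.

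Of the immediate early genes, whose median was 0.58, 4 of 22 were at least 2-fold higher: DUSP4, a phosphatase of ERK (515 CPM with wild-type p53, 180 CPM with vector), and the transcription factors EGR3 (11.6 and 3.68 CPM), KLF6 (193 and 81.1 CPM) and EGR2 (5.69 and 2.29 CPM). FOS had 15.5 and 9.45 CPM. Of the replication-dependent histones only 13 of 25 were matched and 10 described, with 3 at least 2-fold higher, among them HIST1H2BD (21.8 and 5.77 CPM). These transcripts lack poly(A) tails in cycling cells. Ribosome biogenesis had a median of -0.34 and ribosomal proteins one of 0.11, with no gene past 2-fold. MYC had a log2 ratio of -0.27. The heat shock list had a median of -0.19, autophagy and lysosome genes one of 0.21, metallothioneins one of 0.19, NF-kB genes one of 0.30 and NRF2 genes one of 0.04, of which HMOX1, heme oxygenase 1, had 51.2 and 25 CPM.

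Of the myeloid and leukocyte markers described, CXCR5 alone had a log2 ratio below 0. Of 25 myeloid markers 10 reached 1 CPM, 8 of them only with wild-type p53, so that their direction was fixed by that minimum. With no minimum the median log2 ratio of the list was 0.33, against 1.66 over the 10. The summed level over all 25 was 87.7 CPM with wild-type p53 and 9.99 CPM with vector, with 8.28 to 12.1 CPM in the other 5 libraries, and 4 of the 25 had 0 counts with wild-type p53 and 8 with vector. MPO, the myeloperoxidase of neutrophil granules, had 33.6 CPM with wild-type p53 and 0.877 CPM with vector. The granule genes ELANE (3.68 and 0.141 CPM), CTSG (1.59 and 0.0566 CPM) and SRGN (4.68 and 0.113 CPM) were higher as well. The 3 surface markers described had log2 ratios of 0.33 to 2.49, with 1 at least 2-fold higher. Other genes of the lineage were under 1 CPM in both libraries. SPI1 had 0.0387 and 0.0566 CPM, ITGAM 0.426 and 0.424 CPM and CD14 0.0387 and 0.0566 CPM, and DEFA3 and DEFA4 had 0 counts in both. The leukocyte gene PTPRC had 0.155 and 0.0283 CPM, and CD3D, CD2 and MS4A1 had 0 counts in both. Of 16 leukocyte markers 6 were described, of which 2 were at least 2-fold higher. The 5 pan-leukocyte genes among the 6 had log2 ratios of 0.24 to 1.05. Of the 6, 1 reached 1 CPM only with wild-type p53 and 1, CXCR5, only with vector. The B cell marker CXCR5 was lower, at 0 counts with wild-type p53 and 15.1 CPM with vector. Its exons overlap a gene on the opposite strand, and it was also at 0 in p53-R273H cells with ATO. The 16 summed to 91.7 CPM with wild-type p53 and 62.6 CPM with vector, with 34.6 to 71.4 CPM in the other 5 libraries. The part of these genes in the interferon values or in any other result was not tested.

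The 11 erythroid and endothelial markers summed to 25.7 CPM with wild-type p53 and 18.3 CPM with vector, against 4.19 to 5.48 CPM in the other 5 libraries. HBB, the beta-globin gene, had 8.40 CPM with wild-type p53 and 4.41 CPM with vector, against 0 to 0.134 CPM in the other 5. HBA1 had 4.03 and 3.85 CPM, against 0 to 0.845 CPM. None of these markers was 2-fold higher or lower. The erythroid gene ALAS2 was under 1 CPM in both. Among fibroblast markers the median was -0.03, and ACTA2, smooth muscle actin, had 8.09 and 1.98 CPM. Of 21 colon epithelial markers 11 were described, with 3 at least 2-fold higher, among them the keratin genes KRT20 (2.09 and 0.255 CPM) and KRT19 (1280 and 579 CPM). KRT20 reached 1 CPM only with wild-type p53, so its direction was fixed by that minimum. The 2 markers with a log2 ratio below 0 were also keratin genes, KRT18 (676 and 1021 CPM) and KRT8 (1574 and 1685 CPM).

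**Figure D5:**
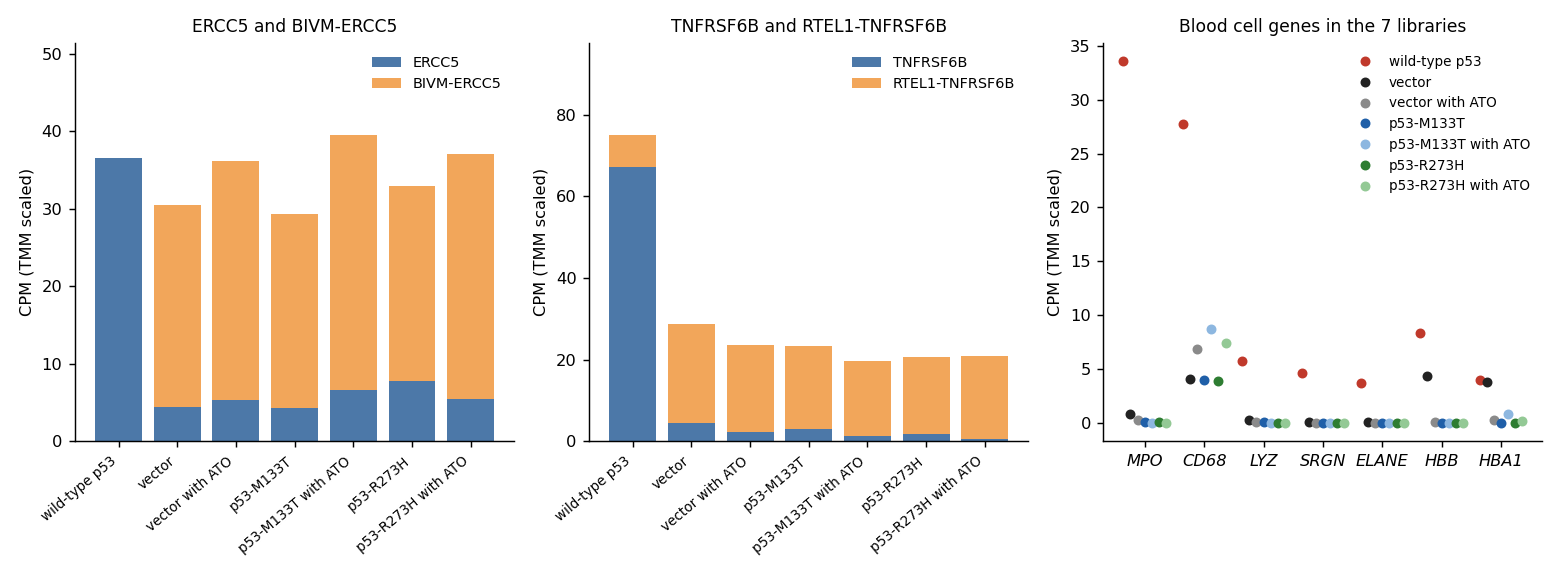
CPM in the 7 libraries of the overlapping genes ERCC5 and BIVM-ERCC5 (left) and TNFRSF6B and RTEL1-TNFRSF6B (middle), as stacked bars, and of 7 blood cell genes (right), as 1 point per library. In the wild-type p53 library BIVM-ERCC5 has 0 counts while the sum with ERCC5, 36.6 CPM, is within the range of the other libraries, the TNFRSF6B pair sums to 75.1 CPM against 28.6 CPM in vector, and MPO stands at 33.6 CPM.

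Genes that share exons with another gene were common among the extreme values. They made up 8 of the 12 lowest and 5 of the 12 highest genes, against 32.1% of all described genes, and 48.4% of the 248 genes at least 2-fold lower and 26.9% of the 364 higher. ERCC5, a nuclease of excision repair, had 36.6 CPM with wild-type p53 and 4.41 CPM with vector, whereas the readthrough gene BIVM-ERCC5 had 0 and 26.1 CPM. Summed, the pair had 36.6 and 30.5 CPM, 1.20-fold (1.10 to 1.31). Of TNFRSF6B, which encodes the decoy receptor DcR3, the sum with RTEL1-TNFRSF6B was 75.1 and 28.6 CPM, 2.62-fold (2.43 to 2.83). The sum of RTEL1 and RTEL1-TNFRSF6B went the other way, at 24.3 and 62.8 CPM, a ratio of 0.388 (0.354 to 0.424). All 3 genes together had 91.4 and 67.2 CPM, 1.36-fold (1.29 to 1.44).

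The clone-named genes AC007192.4 and AC015691.13 lie within such overlaps. AC007192.4 had 89.5 CPM with wild-type p53 and 0 counts with vector. Setting vector at 3 counts gives 1055-fold, and the lower limit of the interval is 857-fold. AC015691.13 had 11 CPM and 0 counts, and 0 counts in the other 5 libraries (129-fold against 3 counts, lower limit 104-fold). ECE2 was also at 0 with wild-type p53, against 9.76 CPM with vector (84.1-fold lower against 3 counts, upper limit of the ratio 0.0147). ZNF320 had 0.503 and 16.7 CPM. The chemokine receptor gene CXCR5 was at 0 with wild-type p53, against 15.1 CPM with vector, but also at 0 in p53-R273H cells with ATO. POLR2J3, FSBP and AC026464.6, the other overlapping genes among the 12 lowest, had ratios of 0.131, 0.0306 and 0.228. The rule by which reads were counted is not stated, so how reads of shared exons were split is not known, and the values of these genes are uncertain.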

How the data were processed

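The authors deposited whole-number counts per gene, not normalized, in 1 table with 1 column per library. Per the labels' protocols, TruSeq libraries were sequenced as 150-bp pairs (HiSeq Xten). The tools STAR, cutadapt and FastQC and the build hg38 are listed per the submitters' processing notes; counting program, strand setting and annotation: not given in the sources used here. All 19699 identifiers matched GENCODE 29 (coordinates, exon overlap); 28 symbols turned into dates and 18 shared symbols took GENCODE names. CPM used TMM factors of edgeR 4.0.16 in R 4.3.3, computed over the 7 libraries. A gene was described at 1 CPM or more in at least 1 of the 2 libraries, so a gene may be described through the library where it is high. Folds against 0 counts set that library at 3 counts. Molecular identifiers are not stated, so reads were not taken as independent molecules and intervals cover counting error only. The calculation was tested on simulated data. RefSeq promoters matched 608 of 793 list genes.

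The members and all 37 lists were chosen with earlier results of these data known. Genes were named from the 12 highest and 12 lowest ratios among genes with at least 5 CPM, any p53 target, and in each other list the first 2 genes and the 4 largest ratios. Other genes named were chosen after their values were seen. The infected gene and some list members are not reported here.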

Additional observations from a re-analysis of the deposited data

How the results depend on the processing

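With a pseudocount of 5 CPM in place of 1, the genes past 2-fold with wild-type p53 numbered 186 higher and 128 lower, against 364 and 248. Without genes that share exons 128 were lower. The remaining alternatives gave 257 to 484 genes higher and 199 to 348 lower: DESeq2 size factors, total counts, a pseudocount of 0.25, no filter, a filter of 10 CPM, vector thinned to the wild-type total, removal of a length and GC trend, and p53-M133T or p53-R273H in place of vector, and, for higher genes, the set without shared exons. Of 37 list medians, the sign was not kept under every alternative for p53 DNA repair targets (-0.29 to 0.05), the unfolded protein response (-0.06 to 0.01), ribosomal proteins (0.00 to 0.32), leukocyte markers (-1.51 to 1) and fibroblast markers (-0.04 to 0.89); the cause was not tested. No paired analysis was possible because each group holds 1 library. Depth limits low genes: 3 counts correspond to 0.116 CPM in the wild-type p53 library and 0.085 CPM in the vector library.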

Other observations

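Families outside the lists were summarised after their values were seen, as descriptions without a test. Genes of the Fanconi anaemia pathway and of homologous recombination, which repair crosslinks and broken forks, were lower with wild-type p53: of 33 genes 16 were at least 2-fold lower (48.5%, against 1.98% of all genes), none higher, and 30 stood below all 6 other libraries, with a median log2 ratio of -0.95. BRCA1 had 31.8 CPM with wild-type p53 and 93.1 CPM with vector and the nuclease subunit EME1 12.9 and 39.2 CPM. The log2 ratio was above 0 for 2 genes, among them FANCF. FANCC, at 21.5 and 35.5 CPM, is also in the list of p53 targets.

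Among partners of MAX, the MYC antagonists MXD1 (12.8 CPM with wild-type p53 and 4.16 CPM with vector) and MXD4 (52.6 and 20.4 CPM) were at least 2-fold higher, and MXD3, which is expressed in S phase, was lower (6.31 and 17.4 CPM). Of 11 keratins described 4 were at least 2-fold higher (36.4%) and 1 lower (9.09%), against 2.91% and 1.98% of all genes, with a median log2 ratio of 0.00. Among them were KRT13 at 21.5 and 1.47 CPM, KRT15 at 25.8 and 8.63 CPM and KRT80 at 10.3 and 35.3 CPM. KRT20, counted as higher, reached 1 CPM only with wild-type p53 (2.09 and 0.255 CPM).

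Names that join 2 genes of the table belong to 46 described genes, of which 7 were at least 2-fold lower (15.2%) and 3 higher (6.52%). Names after a genomic clone belong to 114, of which 18 were higher (15.8%) and 14 lower (12.3%). All other names gave 2.78% higher and 1.84% lower.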
